A study of Mus musculus with 6 samples.

Results

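Adgre1, Adgre4 and Adgre5 encode the EGF-TM7 receptors, the adhesion G protein-coupled receptors of myeloid cells that carry EGF domains outside the membrane. They were taken by gene name from the deposited table and are 3 of its 32000 genes. The members were chosen from their measured counts and FPKM in the comparison of high-fat diet (HFD) with control diet (CD), so their differences between diets are given as a description with no test. The study asked how long-term high-fat feeding of aged mice alters gene expression in bone. Bulk mRNA of bone, labelled cortical bone, was sequenced from male C57BL/6J mice aged 18 months that had received either CD, which the labels call a chewing diet, or HFD for 12 months. Each diet had 3 libraries, CD 1, CD 2 and CD 4 against HFD 2, HFD 3 and HFD 4, and the labels name no other difference between the groups. The labels give cortical bone as the source, whereas the paper speaks of bone particles in its results and of marrow cells in its sequencing methods, so how much marrow the samples held is not settled. Whether the libraries are separate animals is not stated in the labels, so a p-value here measures the spread between libraries, possibly a technical one.

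Adhesion receptors of this kind hold a long extracellular part on a seven-span membrane domain, and most are cut by themselves at a site close to the membrane, after which the pieces stay joined. Adgre1 encodes F4/80, the surface antigen by which mouse macrophages are most often recognised and which eosinophils also carry. Adgre4 encodes EMR4, a receptor of monocytes, macrophages and some dendritic cells in mice. Adgre5 encodes CD97, which is carried by most leukocytes and binds CD55, Thy1 and integrins on other cells.

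The genes lie at separate places of the mouse genome in build GRCm38. Adgre4 (ENSMUSG00000032915) spans 55749984 to 55853662 on the plus strand of chromosome 17, and Adgre1 (ENSMUSG00000004730) spans 57358691 to 57483527 on the same strand of that chromosome. Adgre5 (ENSMUSG00000002885) is on the minus strand of chromosome 8, from 83723251 to 83741326. The open reading frames of the GENCODE M21 transcripts were translated to compare the receptors. Adgre1 encodes 931 residues with 6 matches to the calcium-binding EGF pattern, Adgre4 encodes 689 residues with 1 match, and the 4 full-length transcripts of Adgre5 encode 722 to 818 residues with 2 or 3 matches. The tripeptide HLS, a form of the self-cleavage site, occurred once in Adgre4, HLT occurred once in each Adgre5 protein, and neither occurred in Adgre1. Adgre1 and Adgre4 were identical at 40.4% of aligned residues, and at 52.9% when the last 300 residues, which hold the membrane domain, were aligned. The corresponding identities were 32.0% and 40.0% for Adgre1 and Adgre5, and 38.9% and 38.8% for Adgre4 and Adgre5.

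The promoter of Adgre4, the receptor with the largest difference in these libraries, is the only one of the 3 matched in the table used, so the receptors are not compared on it. It was read from the RefSeq promoter table (GRCm38.p6), chr17:55749734-55749983, plus strand, which holds the 250 bases before the start of the gene. The capitals mark the only match to the motifs searched.
Adgre4 promoter: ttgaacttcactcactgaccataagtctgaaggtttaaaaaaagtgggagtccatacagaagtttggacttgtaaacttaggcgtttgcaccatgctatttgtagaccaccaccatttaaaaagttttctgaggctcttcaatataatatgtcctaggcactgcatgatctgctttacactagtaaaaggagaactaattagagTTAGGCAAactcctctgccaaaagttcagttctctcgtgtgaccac
The match, to the C/EBP-type motif TTGCNNAA on the minus strand, begins 46 bases before the start, and 9.56% of the 32851 promoters of this length held such a match on either strand. No match was found to GAGGAA (in 23.3% of promoters), to the longer PU.1-type AGAGGAAGT (0.798%), to the AP-1-type TGANTCA (6.75%), to AAAGGTCA (1.34%) or to CACCC (52.0%), both strands searched. GAGGAA lies within AGAGGAAGT. The promoter held 39.6% G and C against a median of 52.4% over all promoters, and 2 CpG against a median of 6. A match describes letters only, and binding was not measured.

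The libraries were deep, with total counts of 54.5 to 61.6 M. They also differed in ways that bear on every value below. The 37 mitochondrially encoded genes took 28.8 to 39.3% of the counts in CD 1, CD 4 and HFD 4 but 15.7 to 15.9% in CD 2, HFD 2 and HFD 3, and the TMM scaling factors followed this split (0.641 to 0.943 against 1.24 to 1.28). Without TMM the median log2 fold change of all 19831 tested genes moved from -0.03 to 0.24. A list of 16 intestinal epithelium genes, genes of the gut lining, summed to 11.4 to 180.1 CPM in CD and 159 to 236 CPM in HFD, with 7 of the genes at 0 counts in CD 1 and CD 2 alike. Lypd8, a gene of the colonic surface, was at 0 counts in CD 1 and CD 2, at 47.7 CPM in CD 4 and at 41.8 to 61.2 CPM in the HFD libraries. The part of these shifts in the receptor values was not tested beyond the values given beside them. Osteoblast and osteocyte genes were present in every library, summing to 1029 CPM at the lowest and 72639 CPM at the highest, and marrow, blood and muscle genes were present beside them.

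Adgre4 was the receptor that separated the diets. The CD libraries CD 1, CD 2 and CD 4 had 149, 401 and 131 counts, and the HFD libraries HFD 2, HFD 3 and HFD 4 had 2449, 1778 and 527. In FPKM, which corrects for transcript length and library total, these were 0.608, 1.82 and 0.531 against 11.2, 7.68 and 2.22 in the same order. Every HFD library therefore stood above every CD library, with HFD 2 the highest and CD 4 the lowest. The mean FPKM was 0.986 ± 0.724 (SD, n = 3) under CD and 7.04 ± 4.54 (SD, n = 3) under HFD. On TMM-scaled CPM (counts relative to the library total) the means were 3.96 ± 1.80 and 23.4 ± 12.5 (SD, n = 3 each), a log2 fold change of 2.56 ± 0.53 (HFD minus CD ± SE, edgeR) or 5.90-fold. The gap between the groups was narrower than the means show, since HFD 4 was 1.80 times CD 2 on CPM and 1.22 times CD 2 on FPKM. The paper names Adgre4 as upregulated in its bulk sequencing of bone and reports a quantitative PCR check of it. In bulk tissue, more cells that carry a transcript and more transcript per cell cannot be told apart.

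Adgre1, the F4/80 gene, was higher on average under HFD but its groups overlapped. In the order just used, the FPKM was 3.26, 7.16 and 3.56 under CD and 16.2, 12.4 and 3.87 under HFD. HFD 2 and HFD 3 were above all CD libraries, whereas HFD 4 lay among them, below CD 2. The means were 4.66 ± 2.17 and 10.8 ± 6.31 FPKM (SD, n = 3 each). The log2 fold change on TMM-scaled counts was 0.90 ± 0.38, or 1.86-fold.

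Adgre5, the CD97 gene, was the most abundant of the receptors and differed least between diets. Its FPKM was 10.5, 34.9 and 23.6 under CD and 33.6, 43.0 and 18.0 under HFD, again in that order. The groups overlapped, with CD 2 above HFD 2 and HFD 4 below CD 4. The means were 23.0 ± 12.2 and 31.5 ± 12.6 FPKM (SD, n = 3 each), and the log2 fold change was 0.24 ± 0.30, or 1.18-fold. The Adgre5 span overlaps Ddx39, an RNA helicase gene on the opposite strand, and 659 of the 4006 stretches of 50 bases in Adgre5 transcripts (16.5%) also occur in Ddx39 transcripts, so part of the Adgre5 reads may have been shared between them. Ddx39 had 38.1 CPM under CD and 51.4 CPM under HFD. No stretch of Adgre1 (of 3378) or Adgre4 (of 3442) occurred in another gene.

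**Figure D1:**
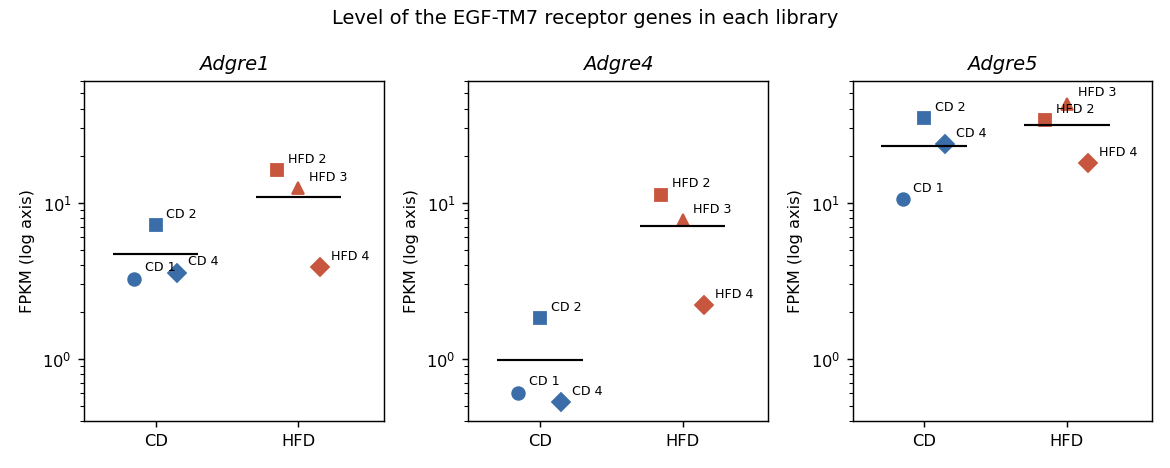
FPKM of Adgre1, Adgre4 and Adgre5 in each library (points, log axis) by diet, with the mean of the 3 libraries of a group as a line. For Adgre4 the lowest HFD library (2.22) lies above the highest CD library (1.82), while for Adgre1 and Adgre5 the diets overlap.

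The order of the receptors by FPKM was Adgre5, Adgre1, Adgre4 in all 6 libraries. Adgre5 did not overlap with Adgre1 under either diet. Adgre1 (3.26 to 7.16 FPKM) and Adgre4 (0.531 to 1.82 FPKM) were apart under CD, but their ranges overlapped under HFD. As a share of the summed FPKM of the 3 receptors, Adgre4 took 4.24%, 4.15% and 1.92% under CD (libraries 1, 2 and 4) and 18.4%, 12.2% and 9.20% under HFD (libraries 2, 3 and 4), an order kept in the lists of values that follow. The ratio of Adgre4 to Adgre1, which no scaling between libraries can change, was -2.42, -1.98 and -2.75 on the log2 scale under CD and -0.53, -0.70 and -0.81 under HFD. These ratios did not overlap, and their means differed by 1.71.

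Within the 3 HFD libraries all receptors were lowest in HFD 4, the HFD library with the high mitochondrial share, so the values are also given among libraries with like shares. Each subset has a diet with 1 library, and these are the values that chose the receptors, so the ratios are a description. Among those above 25% (CD 1 and CD 4 against HFD 4), the HFD value of Adgre4 was 3.48 times the CD mean on CPM, and among those below (CD 2 against HFD 2 and HFD 3) it was 5.10 times the CD value. For Adgre1 the ratio was 1.04 in the former and 1.97 in the latter. For Adgre5 it was 1.03 and 1.08. With the mitochondrial share as a covariate the log2 fold changes were 2.25 ± 0.40 for Adgre4, 0.64 ± 0.32 for Adgre1 and 0.15 ± 0.22 for Adgre5. CD 4 was the only CD library with a high level of intestinal transcripts, and the log2 fold change of Adgre4 against CD 4 alone was 3.38 ± 0.83. CD 4 was also the library with the lowest Adgre4, and with 1 library on that side the SE comes from the spread of the HFD libraries only.

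**Figure D2:**
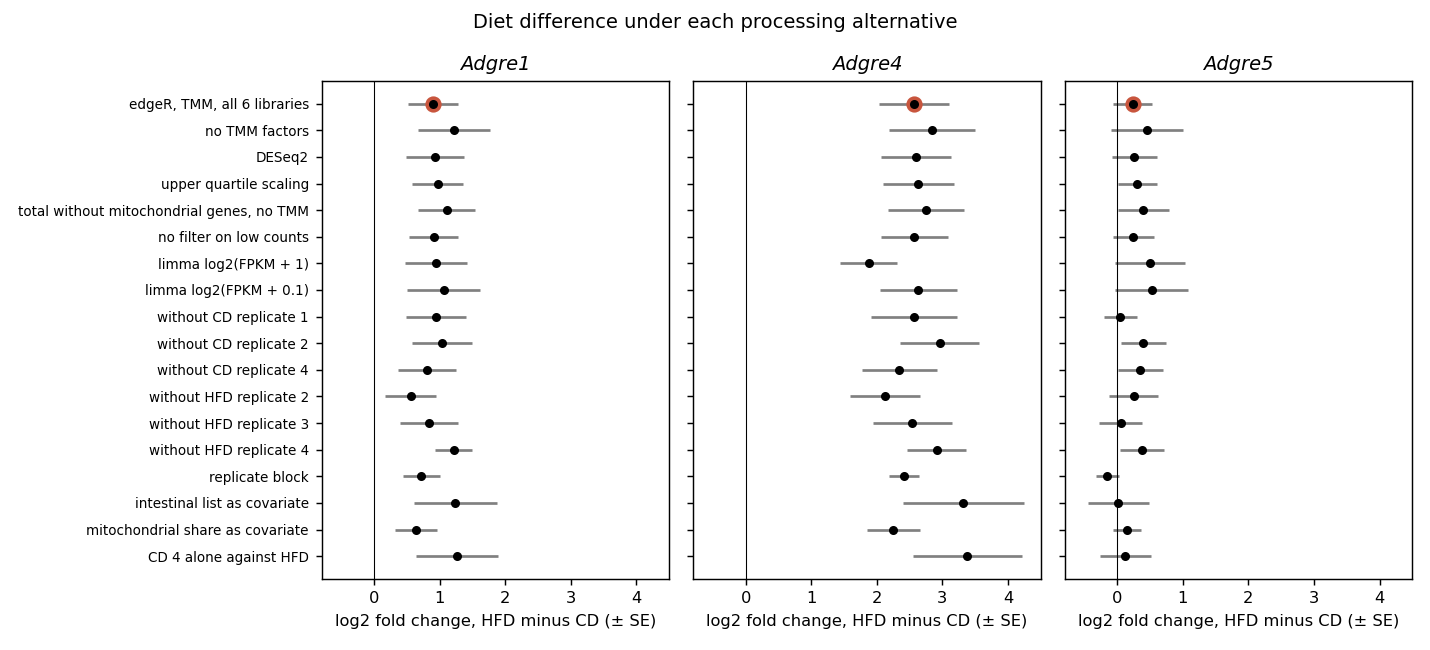
Log2 fold change (HFD minus CD, points) with its SE (bars) of each receptor for the edgeR fit (large coloured point) and 17 alternatives. Adgre4 lies between 1.87 and 3.38 in the alternatives, Adgre1 between 0.56 and 1.26, and Adgre5 between -0.15 and 0.53.

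The receptors were next set against 5 genes of leukocytes and myeloid cells in the same library, Ptprc (the leukocyte antigen CD45), Csf1r (the receptor for macrophage colony-stimulating factor), Cd68 (a lysosomal protein of phagocytes), Itgam (CD11b) and Lyz2 (lysozyme). Relative to the mean log2 FPKM of the 5, Adgre4 was at -4.99, -5.10 and -6.18 under CD and at -2.51, -3.13 and -3.70 under HFD. The diets did not overlap and their means differed by 2.31. The ratio of Adgre4 was also apart for each of the 5 genes, with differences of 1.87 for Ptprc, 2.96 for Csf1r, 2.56 for Cd68, 2.38 for Itgam and 1.78 for Lyz2. Without CD 4 they were 1.65, 2.27, 1.81, 2.21 and 1.72 in that order, and 1.93 for the mean of the 5. Csf1r (210 CPM) and Cd68 (101 CPM) were highest in CD 4, as was the osteoclast list. Adgre1 relative to the mean of the 5 was at -2.57, -3.13 and -3.44 against -1.98, -2.43 and -2.90, which overlapped. Adgre5 varied little on this measure, lying between -0.92 and -0.65 in all 6 libraries with a difference of 0.06 between the means. Against single genes it was lower under HFD relative to Ptprc (-0.38) and higher relative to Csf1r (0.71), in each case with no overlap. Without CD 4 these differences were -0.17 and 0.45.

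**Figure D3:**
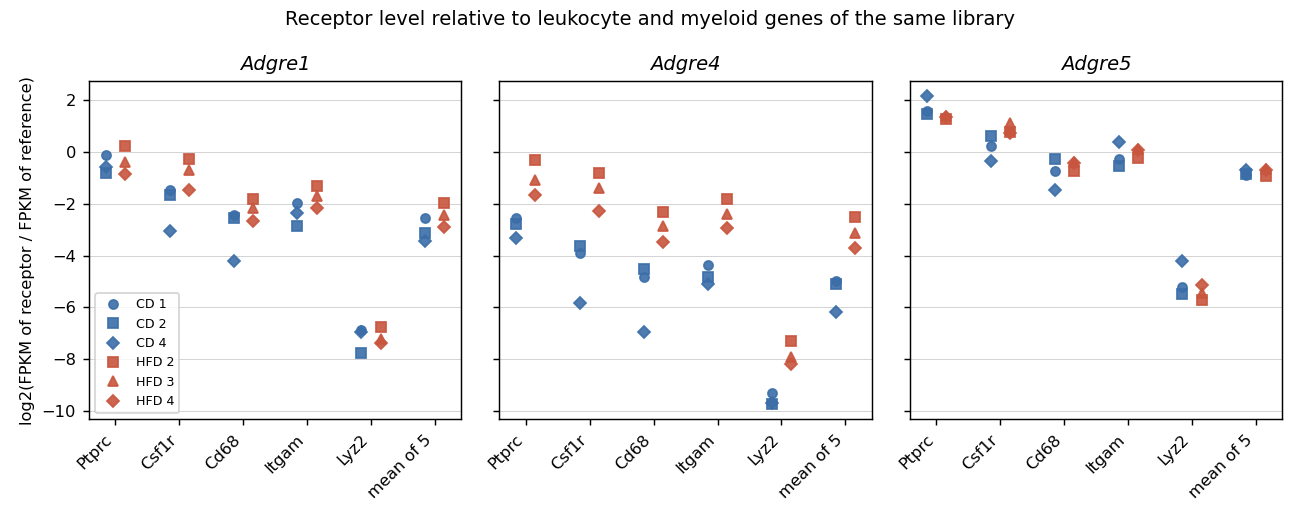
Log2 ratio of the FPKM of each receptor to that of 5 reference genes and to the mean of their log2 values, by library (symbols, blue for CD and red for HFD). The HFD libraries lie above the CD libraries for Adgre4 against every reference, while Adgre5 against the mean of 5 stays between -0.92 and -0.65.

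No binding partner of CD97 passed the test between diets. The edgeR quasi-likelihood test with Benjamini-Hochberg adjustment called 0 of 19831 genes (0%), with a smallest adjusted p = 0.466, while 488 genes were higher and 1428 lower at an unadjusted p under 0.05. DESeq2 called 111 genes higher (0.535%) and 231 lower (1.11%) of 20764. On TMM-scaled CPM every HFD library lay above every CD library for 4.97% of tested genes and below for 10.2%. Adgre4 was in the former group, a count of 1 of 3 receptors from which nothing is read, since the contrast chose them. Of 6 tested partners edgeR and DESeq2 called 0, and 1 had groups apart, Itgb1, the integrin beta chain of many pairs (303 ± 47.0 CPM under CD and 238 ± 30.9 under HFD, log2 fold change -0.35 ± 0.27).

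The partner best known for CD97, the complement regulator Cd55, had 43.9 ± 9.48 CPM under CD and 40.5 ± 13.5 under HFD (SD, n = 3 each), which overlapped. Its duplicate Cd55b did not pass the filter on low counts, with 0 counts in 4 libraries, 22 in HFD 3 and 8 in HFD 4. The log2 fold change was -0.35 ± 0.26 for Thy1, a small surface glycoprotein of stromal and T cells, and -0.53 ± 0.29 for Itga5, the alpha chain of a fibronectin receptor. Itgav, an alpha chain of vitronectin receptors, was at 117 CPM in CD 4 and at 24.6 to 40.4 CPM in the other libraries. Itgb3, its beta chain in osteoclasts, was at 453 CPM in HFD 3 and at 52.8 to 209 CPM in the others. The median over the 6 partners was -0.35, beside -0.03 for all tested genes, and -0.18 without CD 4.

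Genes that carry adhesion receptor signals, G12/13 proteins with their downstream effectors and arrestins, were all tested, and 0 of 10 were called by edgeR or DESeq2. The median was 0.13. The G protein subunits Gna12 and Gna13, the GTPase Rhoa and the kinase Rock1 had log2 fold changes between 0.05 and 0.16, and Arhgef1, the guanine nucleotide exchange factor of blood cells, had 0.26 ± 0.34. Arrb2, which encodes beta-arrestin 2, had the largest positive value (93.4 ± 47.1 against 149 ± 51.1 CPM, 0.67 ± 0.43), with overlapping groups, and Arrb1, which encodes another arrestin, had 0.27 ± 0.40. For 3 genes every HFD library was below every CD library, as for 10.2% of all tested genes. These were the kinase Rock2 (-0.38 ± 0.21) and the exchange factors Arhgef12 (-0.27 ± 0.20) and Arhgef11 (-0.87 ± 0.24). The median was -0.11 without HFD 3, 0.02 without CD 1, 0.21 without CD 2 and 0.22 without HFD 4.

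The rest of the adhesion receptor class placed the members. By FPKM, Adgre5 was the highest of the 30 adhesion receptors in 5 libraries and the second in CD 1, below Adgrf5. Adgre4 ranked 11, 11 and 13 under CD and 3, 5 and 7 under HFD. Adgre1 ranked 5, 6 and 8 against 2, 3 and 5. Of the other 27 receptors 23 were tested, of which 17 had a negative and 6 a positive log2 fold change, with a median of -0.48. edgeR called 0 of the 23, and DESeq2 called 1 lower, beside 1.11% of all genes.

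The most abundant of these was Adgrf5, a receptor of lung epithelium and endothelium, with 185 ± 43.8 CPM under CD and 86.5 ± 50.7 under HFD and overlapping groups. Adgrl4, an endothelial receptor, had a log2 fold change of -0.78 ± 0.38, also with overlap. Adgrg1 (0.03 ± 0.33), a receptor of neural, stem and cytotoxic cells, and Adgrg3 (0.25 ± 0.35), a receptor of granulocytes, overlapped too. Receptors with every HFD library below every CD library were Adgrl1, a latrophilin (-0.68 ± 0.24), Adgra3 (-1.32 ± 0.37) and Adgrd1 (-2.34 ± 0.63), beside the scarce Adgrg2. Of all tested genes 10.2% lay below in this way and 4.97% above. Adgrd1 was the one called by DESeq2 (adjusted p = 0.0189; edgeR adjusted p = 0.466), and had 10.6, 18.6 and 45.4 CPM under CD against 3.78, 2.88 and 8.10 under HFD. Adgrg7, a receptor gene of the intestine, was the only other receptor with every HFD library above every CD library (0.94 ± 0.50), at 0.736, 1.69 and 2.62 CPM against 3.01, 3.93 and 2.79. Osteoblast, osteoclast and intestinal lists moved in the same libraries, and their part in these values was not tested.

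**Figure D4:**
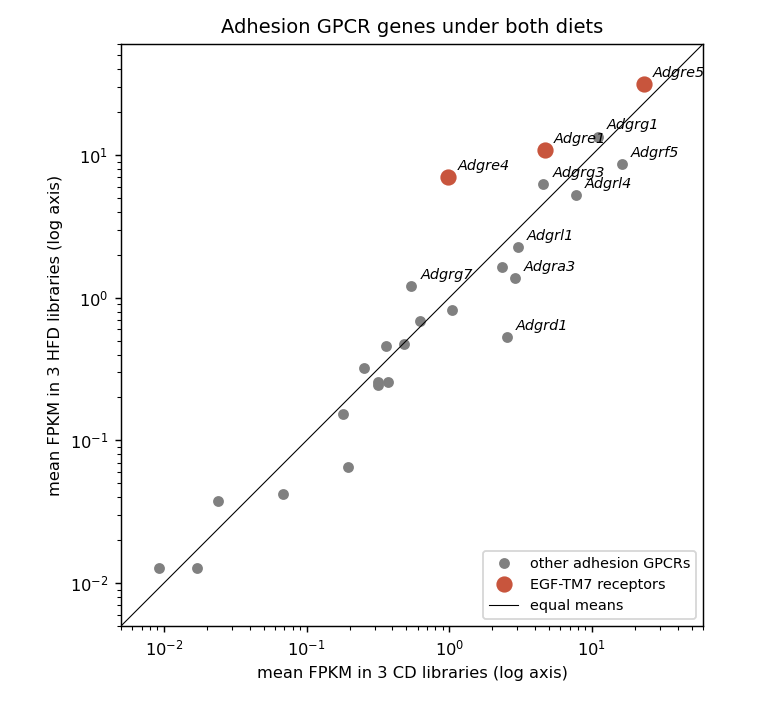
Mean FPKM of the 26 tested adhesion receptor genes in the 3 CD libraries (x axis) and the 3 HFD libraries (y axis), both log axes, with the line of equal means. Adgre4 lies farthest above the line (0.986 and 7.04 FPKM), and Adgrd1 farthest below it among receptors above 1 FPKM.

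Markers of the cells that carry these receptors showed which other transcripts moved with them. On the pan-myeloid list 0 of 11 genes were called by either tool, the median was 0.18, and the summed level overlapped (1491 to 2846 CPM under CD and 1767 to 3214 under HFD). Its most abundant members were Lyz2 (0.65 ± 0.53) and the signalling adaptors Tyrobp (0.65 ± 0.43) and Fcer1g (1.11 ± 0.49), all with overlap. The median was 0.51 without CD 2, 0.42 without CD 4, 0.31 without HFD 4 and 0.01 without HFD 3. On the classical monocyte list 0 of 7 were called, with a median of 0.40, which was 0.91 without CD 2 and 0.23 to 0.25 without CD 1, CD 4 or HFD 3. There Ly6c2, the surface antigen of these monocytes, had 0.81 ± 0.48 with overlap, and fibronectin (Fn1), which bone matrix also holds, was lower in every HFD library (-1.05 ± 0.39).

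The Ly6c-low monocyte list was divided. DESeq2 called 4 of its 10 genes higher and 0 lower, beside 0.535% and 1.11% of all genes. edgeR called 0, and the median was 1.03. Cd300e, an activating receptor, had 0.762, 0.991 and 0.568 CPM under CD and 49.0, 22.8 and 4.49 under HFD. Fcgr4, an Fc receptor for IgG, had 5.79, 10.7 and 4.56 against 209.8, 81.6 and 17.5 CPM, and Itgad, the integrin alpha D chain, had 1.35, 2.13 and 0.843 against 30.7, 22.1 and 6.63 CPM. All of these shared the order of Adgre4 within HFD, highest in HFD 2 and lowest in HFD 4. Pou2f2, a transcription factor of lymphocytes and monocytes, was the other one called (1.89 ± 0.56). Nr4a1, the nuclear receptor needed for these monocytes, and Ace were lower in every HFD library (-0.77 ± 0.32 and -0.74 ± 0.29), although neither was called. The summed level of the list, 273 to 489 CPM under CD and 365 to 631 under HFD, overlapped. Nr4a1 alone made up 163 of 321, 221 of 489 and 150 of 273 CPM of the sum under CD. Under HFD it made up 84.3 of 631, 80.9 of 509 and 147 of 365 CPM. The sum had the order of this gene under CD. Under HFD the gene was highest in HFD 4, where the sum was lowest.

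Among the marrow macrophage genes DESeq2 called 4 of 14 higher and 0 lower, beside 0.535% and 1.11% of all genes. edgeR called 0, and the median was 0.99. The 3 complement C1q chains were C1qa (1.65 ± 0.46), C1qb (2.03 ± 0.54) and C1qc (1.96 ± 0.50), and Cd5l, a secreted protein of tissue macrophages, was the largest (2.87 ± 0.61), all called by DESeq2. Axl, a receptor for apoptotic cells, and Spic, the transcription factor of iron-recycling macrophages, were also above CD in every HFD library without a call. The groups overlapped for the other 8 genes, among them Hmox1 (heme oxygenase, 1.14 ± 0.43), Vcam1 (0.51 ± 0.42), Slc40a1 (the iron exporter, 0.50 ± 0.28) and Mrc1 (0.55 ± 0.29). Mertk, a receptor for apoptotic cells like Axl, and Cd163, the haemoglobin scavenger receptor, had negative values (-0.70 ± 0.39 and -0.16 ± 0.41). Without HFD 3 the median of the list was 0.63. Its sum was 347 to 526 CPM under CD and 562 to 1095 under HFD, with no overlap. Timd4 had 0 counts in CD 1 and at most 101 counts in another library.

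The remaining cell types were read for the same comparison. Eosinophils, which also carry F4/80, had summed markers of 69.2 to 174 CPM under CD and 86.5 to 275 under HFD, and DESeq2 called 1 of 8 higher, Ear2, a ribonuclease gene that Ly6c-low monocytes share. In HFD 2, the library with the most Adgre1, the sum was 86.5 CPM. There the granule gene Prg2 had its lowest value (28.0 CPM), while Siglecf (5.16 CPM) was above every CD library. The part of eosinophil transcripts in the Adgre1 values was not tested. On the neutrophil list the tools called 0 of 12 (median 0.62). Of 10 dendritic cell genes DESeq2 called 2 higher (median 0.83), beside 0.535% of all genes. These were Batf3 (3.56 ± 0.86), which the paper names as upregulated beside Adgre4 and Cd300e, and Itgax (2.08 ± 0.58), the CD11c chain. The groups were apart for Batf3, with 1.28 CPM in HFD 4 against 0.878 in CD 4, and overlapped for Itgax. Zbtb46, a transcription factor of these cells, was below CD in every HFD library without a call (-0.43 ± 0.26), and Cd209a had -0.76 ± 0.48 with overlap. B cell (median 1.17), T and NK cell (0.56), erythroid (0.70) and intestinal epithelium (1.52) genes had 0 calls by either tool, as had skeletal muscle (-0.92). All 8 osteoclast genes were below CD in every HFD library (median -2.66, 5 called lower by DESeq2). Of 12 osteoblast and osteocyte genes 5 were called lower by it (median -2.11). Over all tested genes 10.2% were below CD in every HFD library, and DESeq2 called 1.11% lower. Both bone lists had their highest level in CD 4, where Adgre4 had its lowest.

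**Figure D5:**
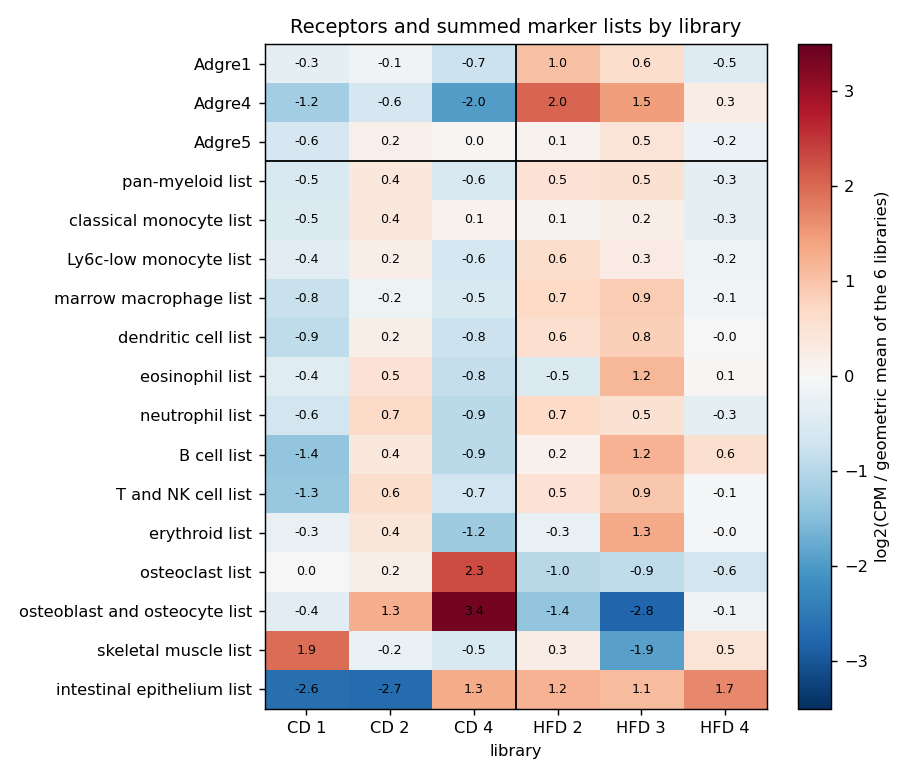
Log2 of the TMM-scaled CPM of each receptor and of the summed CPM of each marker list, relative to the geometric mean of the 6 libraries (colour and printed value; the columns are libraries). Adgre4 runs from -2.0 in CD 4 to 2.0 in HFD 2, and the bone lists are highest in CD 4. The range of a single gene cannot be compared with that of a sum. Among single genes, Adgre4 ran from 2.25 to 35.6 CPM and Cd300e from 0.568 to 49.0 CPM.

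Across the 6 libraries Adgre1 and Adgre4 were alike in pattern (Pearson r = 0.92, Spearman correlation 0.83 on log2(CPM + 1)), and Adgre5 was less like either (r = 0.52 with Adgre1 and 0.51 with Adgre4). Without TMM the same correlations were 0.93, 0.81 and 0.70. All of these points share diet, depth and mixture of cells, and the values are a description over 6 points. Of 11562 candidate genes, those most like Adgre4 were Stard5 (a lipid transfer protein), Wdr77 (a partner of an arginine methyltransferase), Ung (a uracil-DNA glycosylase), Cd244a (a receptor of NK and myeloid cells) and Itgad, with r of at least 0.99. Wdr77 followed the pattern over a narrow range (25.7 to 36.6 CPM), whereas Itgad spanned 0.843 to 30.7 CPM.

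The genes most like Adgre1 were Orai3 (a calcium channel), Tomm22 (a mitochondrial import receptor), Clec4a1 (a C-type lectin receptor of myeloid cells), Klra2 (a Ly49 family receptor) and Ssu72 (an RNA polymerase II phosphatase), with r of 0.98 to 0.99. Clec4a1 had the widest range, with 7.54, 10.2 and 5.73 CPM under CD and 55.2, 32.6 and 9.60 under HFD. Those most like Adgre5 were Phgdh (a serine synthesis enzyme), Sh3bp1 (a GTPase-activating protein), Shld3 (a DNA repair factor), Gar1 (a small nucleolar RNA-binding protein) and Ywhaz (an adaptor protein), with r of 0.99 or more. The log2 fold changes of these 5 lay between 0.21 and 0.38, near that of Adgre5.

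No gene beside Adgre4 on the chromosome had groups that were apart. Its nearest tested neighbours were Pot1b, a telomere protein gene 37.4 kb before it (16.6 ± 4.45 against 22.3 ± 4.91 CPM, log2 fold change 0.42 ± 0.28), and the zinc finger genes Zfp119a, Zfp959 and Zfp119b 11.2, 38.4 and 84.7 kb behind it (between -0.03 and 0.17). All of these overlapped between diets. Next to Adgre1 lay Vav1, a guanine nucleotide exchange factor of blood cells at 30.7 kb (41.4 ± 22.6 against 69.6 ± 22.3 CPM, 0.75 ± 0.43), Trip10 (-0.48 ± 0.51) and Gpr108 (-0.12 ± 0.20), also with overlap. Adgre5 lay 58.6 kb from Gipc1 (0.33 ± 0.34), also with overlap, and 159 kb from Adgrl1. Of the 18 neighbours, 3 on each side of each receptor, Adgrl1 alone had groups that did not overlap, with HFD below CD (edgeR adjusted p = 0.472).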

How the data were processed

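The authors deposited 1 table of 32000 genes with counts and FPKM per library. Polyadenylated RNA was used, per the labels. Tools listed in the submitters' processing notes, with no roles, are StringTie 1.3.4d, HISAT2 2.0.4, edgeR, DESeq2, UMI-tools and cutadapt 1.9, whereas the methods of the paper give a different aligner and counter. Which of them made the counts, and whether strand was used, is therefore not settled, and reads of overlapping genes cannot be told apart. Deposited FPKM was proportional to the count within a gene (within 0.436% for 98% of values of 12388 genes with at least 100 counts in every library), so both hold the same measurement.

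Groups and replicate numbers came from the labels. No 2 libraries held identical values. Counts were analysed with edgeR 4.0.16 in R 4.3.3 (filterByExpr with a minimum count of 10, TMM, quasi-likelihood test, Benjamini-Hochberg adjustment, threshold 0.05, no covariate), over all 19831 genes that passed, 3 receptors among them. The script was tested on simulated data. CPM values are TMM-scaled. DESeq2 1.42.0 and limma 3.58.1 on log2(FPKM + 1) or log2(FPKM + 0.1), for genes reaching an FPKM of 0.5 in 3 libraries, were alternatives, beside other scalings, no filter, each library left out, a replicate block, covariates and CD 4 alone. DESeq2 calls count genes with an adjusted p.

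The receptors and the 19 gene lists were chosen with earlier results of these data known. Named by rule were the 3 receptors, all listed partners and transducers, of the other adhesion receptors the 5 with the highest mean FPKM and those with groups apart at a mean FPKM of at least 1, up to 3 abundant members of each cell type list, for each receptor the 5 genes with the highest Pearson r (mean FPKM of at least 1 in a group), the 3 nearest tested genes on each side and the 5 reference genes. Further genes (Adgrg2, Pou2f2, Cd300e, Itgad, Ace, C1qc, Cd5l, Axl, Spic, Timd4, Mertk, Cd163, Batf3, Siglecf, Zbtb46, Cd209a and the like) were named after their values were seen. Some genes that the rule names are not reported here. Promoters came from RefSeq (GRCm38.p6), with 1 of the 3 receptors matched, and transcripts from GENCODE M21. Figures were drawn with matplotlib 3.10.9.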

Additional observations from a re-analysis of the deposited data

How the results depend on the processing

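Over 17 alternatives Adgre4 stayed positive (1.87 to 3.38, the lowest on log2(FPKM + 1), the highest of 3.38 against CD 4 alone), as did Adgre1 (0.56 to 1.26). Adgre5 was positive in 16 (up to 0.53). With each library left out in turn, the ranges were 2.13 to 2.96 for Adgre4, 0.56 to 1.21 for Adgre1 and 0.05 to 0.40 for Adgre5 (Adgre1 0.56 without HFD 2, Adgre5 0.05 without CD 1, 0.06 without HFD 3, 0.40 without CD 2 and 0.38 without HFD 4). The labels do not say that equal replicate numbers pair the samples, only numbers 2 and 4 occur in both groups, and their deviations correlated at -0.30 and 0.28. In a fit with the replicate block the log2 fold changes were 2.42 for Adgre4, 0.72 for Adgre1 and -0.15 for Adgre5. Genes called higher numbered 111 by DESeq2, 9 by limma on log2(FPKM + 1), 7 on log2(FPKM + 0.1) and 0 to 23 with a library left out (23 without CD 4). Genes called lower numbered 231 by DESeq2, 1 by limma on log2(FPKM + 1) and 0 to 1 with a library left out (1 without CD 4). The median of the G12/13, effector and arrestin genes was 0.37 without TMM, 0.30 on totals without mitochondrial genes, 0.37 and 0.41 by limma with pseudocounts of 1 and 0.1, -0.22 with the replicate block and -0.11 to 0.22 with a library left out. The median of the other adhesion receptors was -0.21 by limma with a pseudocount of 1, -0.82 with the intestinal list as covariate, -0.91 against CD 4 alone, and -0.70 to -0.25 with a library left out (-0.25 without CD 4). Against CD 4 alone the classical monocyte median was 1.003, and the Adgre5 ratio to Itgam turned to -0.40. With a library left out the medians ranged from 0.23 to 0.91 for classical monocyte, 0.01 to 0.51 for pan-myeloid, 0.63 to 1.33 for marrow macrophage, 0.88 to 1.54 for Ly6c-low monocyte and -0.44 to -0.18 for CD97 partner genes. The Adgre4 difference relative to the 5 reference genes was 1.43 with a pseudocount of 1, 1.93 without CD 4 and 3.07 against CD 4 alone. The cause of these shifts was not tested. Low counts kept Cd55b and 4 other adhesion receptors out of the test.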
